A study of Homo sapiens with 6 samples.

Results

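The FOXO factors and the genes linked to PI3K signalling, 10 genes in all, were followed in MCF10A cells, an established non-tumorigenic line of human mammary epithelial cells, with growth factors and after their depletion. They were taken by symbol from the deposited table of normalized counts, in which all 10 of 10 were found among 19198 genes, and they comprise the transcription factors FOXO1, FOXO3 and FOXO4, the FOXO targets SESN1, SESN3, TXNIP and PIK3IP1, and the PI3K-linked genes PIK3R1, PIK3C2B and DDIT4. The question was whether these genes moved the way they are known to move when insulin is withdrawn. The control group held 3 samples grown with 10 µg/ml of insulin, 20 ng/ml of EGF, hydrocortisone at 0.5 µg/ml and cholera toxin, which raises cAMP, at 100 ng/ml. The depleted group held 3 samples from which all 4 of these had been removed together, so that the part of insulin and the parts of the other supplements cannot be told apart. Both groups were the same line and kept 5% horse serum, which itself carries growth factors. The duration of depletion is not given for these samples. Nothing in the sources says whether the samples came from separate cultures, so that the p-values measure the spread between these samples, which may be technical.

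Insulin and other growth factors activate phosphoinositide 3-kinase (PI3K), whose lipid product recruits the kinase AKT to the membrane. AKT phosphorylates FOXO proteins, which then bind 14-3-3 proteins and leave the nucleus. When the signal stops, FOXO proteins return to the nucleus and switch on genes for stress resistance, cell cycle arrest and brakes on the pathway itself, and the FOXO genes are themselves known to be induced. FOXO activity is therefore set largely by where the protein lies, which RNA-Seq does not measure. Of the 10 genes, 7 are known to rise when insulin is withdrawn (FOXO1, FOXO3, FOXO4, SESN1, SESN3, TXNIP and PIK3IP1), while PIK3R1, PIK3C2B and DDIT4 have no single known direction.

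A FOXO motif, the DNA letters that FOXO proteins read, was searched for around the start sites of these genes. RefSeq windows of 250 bases before to 50 bases after the start (GRCh38.p14) were found for all 10 genes, 20 windows in all. The motif GTAAACA, on either strand, was present at TXNIP, PIK3IP1 and FOXO4, 3 of the 10 genes, while 4.19% of the 27305 genes with a window hold it. These shares are not on equal terms, because the 10 genes had more windows per gene than all genes did. Counted by window, 3.42% of all 35116 windows hold the motif. The letters below show it in capitals, at chr1:145996685-145996714 on the minus strand for TXNIP, chr22:31292454-31292483 on the minus strand for PIK3IP1 and chrX:71095863-71095892 on the plus strand for FOXO4. In TXNIP the motif lay 124 bases before the start. In PIK3IP1 and FOXO4 it lay inside the transcript, 17 and 24 bases into it, and in PIK3IP1 it stood on the other strand.
TXNIP FOXO motif: tcgggctcctgGTAAACAaggaccgggcag
PIK3IP1 FOXO motif: taaagagaggcTGTTTACcagaacagcata
FOXO4 FOXO motif: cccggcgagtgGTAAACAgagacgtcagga
The TXNIP window also held a carbohydrate response element, the paired E-box through which the glucose-sensing factor MondoA acts. It was searched on both strands as the letters CACGNG, then any 5 bases, then CACGNG again. Only TXNIP among the 10 genes held it, as did 0.0732% of all genes with a window, and its paired boxes are shown in capitals at chr1:145996644-145996673, minus strand, 88 bases before the start.
TXNIP carbohydrate response element: gatgtgCACGAGggcagCACGAGcctccgg
A match describes these letters and is not evidence that the site is bound.

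The values are normalized counts, that is, reads per gene scaled by the authors for library size and not for gene length. Between 7472418 and 28672630 reads on genes per sample stood behind them, and each of the 10 genes had between 59 and 23572 reads in every sample. A floor of 3 reads, which allows for counting error alone, equals 1.76 to 6.71 normalized counts across the samples. The groups were compared with limma on log2(normalized count + 1) for 16988 genes, all 10 among them, and a gene was called where it differed by 2-fold or more with an adjusted p (Benjamini-Hochberg) under 0.05. For a value taken alone, 0.1 is the smallest p that an exact permutation test (two-sided) of 3 against 3 can give. CDH1 and KRT5, which mark epithelium, were at 12960.7 and 12738.7 normalized counts or more in every control, but at 609.6 and 562.0 in depleted replicate 1, which stood apart from depleted replicates 2 and 3. The other epithelial markers were mixed in that sample. EPCAM at 152.9 and TP63 at 8.2 were also below every control, KRT14 at 980.3 and KRT18 at 8659.5 were above every control, and KRT8 at 7755.2 was within the control range. Among markers of other cells, those of fibroblasts moved with the groups, while the endothelial and leukocyte sums overlapped between them. The summed fibroblast markers (COL1A2, COL3A1, LUM and others) were between 225 and 451.2 normalized counts in the controls and between 9957 and 33380 after depletion, with 6 of 7 tested called up. Over all genes tested, 4.36% were called higher and 1.97% lower. The epithelial markers summed to between 32640 and 75700 in the controls and between 18730 and 59690 after depletion, with 1 of 7, TP63, called down, a call kept in 3 of 6 fits with a sample removed. Endothelial markers summed to between 167.2 and 1787 in the controls and between 264.9 and 1610 after depletion, with 1 of 3 tested called up, CDH5. KDR went the other way, with every depleted sample below every control (log2 fold change -3.8, limma adjusted p = 0.193). PECAM1 varied widely within both groups, which overlapped. Its log2 fold change of 0.09 (95% interval -2.45 to 2.62, limma adjusted p = 0.981) leaves room for a change of either sign. Neither KDR nor PECAM1 was called. Leukocyte markers summed to between 272.5 and 883.5 and between 86.55 and 656.3, with CD14 the only 1 tested and not called, and the defining marker PTPRC stayed at or under 13.8. In bulk samples fewer cells of a type and less RNA per cell cannot be told apart, and the part of these markers in the values below was not tested. The authors report that this depletion led MCF10A cells into an epithelial to mesenchymal transition, with higher CDH2, FN1 and VIM. The part of that transition in the fibroblast markers was not tested here.

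Of the 10 genes, limma called 1 lower after depletion, FOXO1, and 0 higher, against a background of 1.97% of all genes tested called lower, 4.36% called higher and 6.33% called in either direction. Fold changes were negative for 8 genes and positive for 2, with a median log2 fold change of -0.56, where the median of all genes tested was -0.03. In 5 of the 10 genes (FOXO1, SESN1, TXNIP, PIK3C2B and DDIT4) every depleted sample lay below every control sample, and in 0 genes above. Over all genes tested 12.1% lay wholly below, 13.5% wholly above and 25.6% either way. The unadjusted p was under 0.05 for 5 of the 10 genes, FOXO1, TXNIP, PIK3IP1, PIK3C2B and DDIT4, against a background of 20.0%. Among the 7 genes known to rise when insulin is withdrawn, 0 were called up and 1 was called down, and their median log2 fold change was -0.43.

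**Figure D1:**
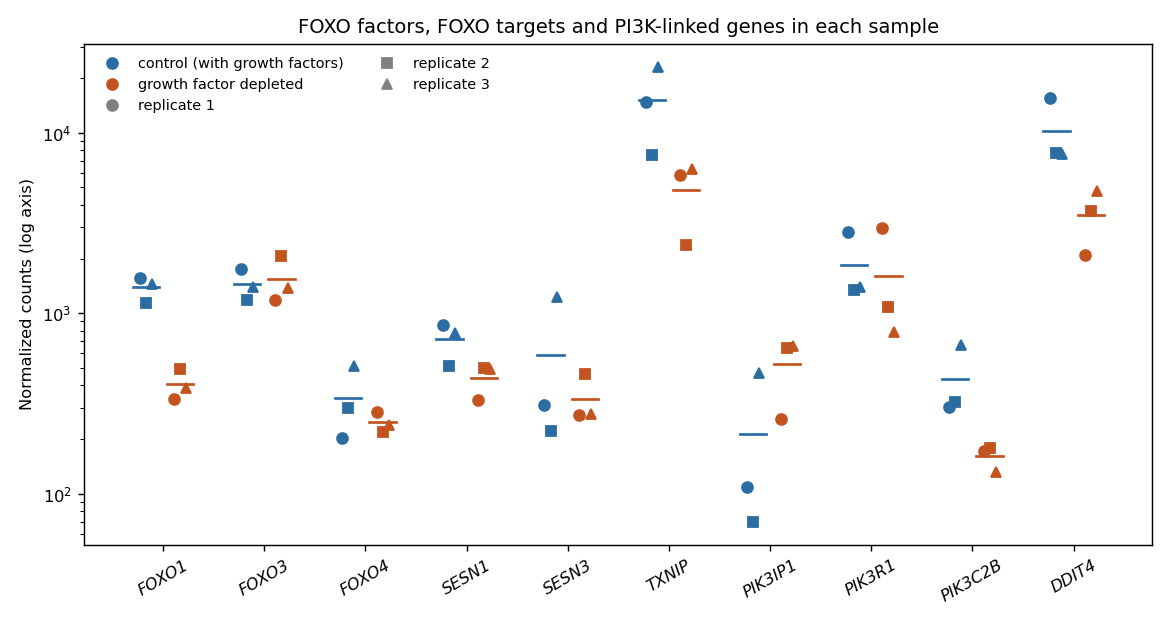
Normalized counts (log axis) of the 10 genes in each control sample (blue) and growth factor depleted sample (orange), with the marker shape giving the replicate number and the line the group mean. The depleted samples of FOXO1, SESN1, TXNIP, PIK3C2B and DDIT4 lay below all control samples, and the 3 control samples of PIK3IP1 and SESN3 spread the most.

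FOXO1, the FOXO factor best known for its control of metabolic genes by insulin, was the gene that fell. It lies at chr13:40555667-40666641 on the minus strand (hg38). The controls read 1574.1, 1143.6 and 1451.0 normalized counts and the depleted samples 333.2, 493.7 and 386.8. The highest depleted sample was thus well under the lowest control. The mean went from 1390 ± 221.7 to 404.6 ± 81.73 (SD, n = 3 each), 29.0% of the control mean on the log2 scale, with a log2 fold change of -1.78 (SE 0.29, 95% interval -2.44 to -1.13, limma adjusted p = 0.00866). The call was held in 5 of 6 fits that left out a sample and lost without depleted replicate 3, the shallowest library, where the log2 fold change was -1.76 and the limma adjusted p 0.0511. Without depleted replicate 1, the sample low in CDH1 and KRT5, it was -1.65 (limma adjusted p = 0.0285). edgeR, which called 5.72% of all genes, also called FOXO1 (adjusted p = 0.013).

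FOXO3, the FOXO factor tied to stress resistance and autophagy, lies at chr6:108559835-108684774 on the plus strand. Its level was 1750.8, 1189.9 and 1392.0 normalized counts in the controls and 1183.5, 2073.9 and 1372.9 after depletion. The groups overlapped throughout, and both the lowest and the highest sample were depleted ones. The log2 fold change was 0.07 (95% interval -0.64 to 0.78, limma adjusted p = 0.935), an interval that leaves room for a change of either sign. FOXO4, a shorter FOXO factor encoded on the X chromosome (chrX:71095851-71103532, plus strand), read 203.0, 300.0 and 508.6 normalized counts in the controls and 283.7, 220.3 and 241.5 after depletion. Its depleted samples sat inside the wide control range, at a log2 fold change of -0.34 (95% interval -1.24 to 0.55, limma adjusted p = 0.702).

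Because the family members were counted in the same libraries, their shares were compared within each sample, per kilobase of gene length. That length was the union of all annotated exons of a gene, not the length of the transcript in use. FOXO1 made up 48.4%, 45.0% and 43.6% of the summed FOXO level in the controls and 19.6%, 20.1% and 21.1% after depletion. The share of FOXO1 varied little within each group (45.7 ± 2.48% and 20.3 ± 0.755%, SD, n = 3) and the groups did not overlap. FOXO3 made up 41.8%, 36.4% and 32.5% in the controls and 54.1%, 65.7% and 58.2% after depletion, so that per kilobase it led in all 3 depleted samples, while FOXO1 led in all 3 controls. The lead of FOXO1 in the controls depends on the length used. In counts FOXO3 was above FOXO1 in control replicate 1 (1750.8 against 1574.1) and control replicate 2 (1189.9 against 1143.6). In control replicate 3 it was below (1392.0 against 1451.0). The summed level of the FOXO factors per kilobase was 546.1, 426.2 and 559.3 in the controls and 285.1, 411.4 and 307.6 after depletion. The sum was lower in every depleted sample, but the gap between the lowest control and the highest depleted sample was narrow. A share moves when any member moves, so the higher share of FOXO3 is not a higher level of FOXO3.

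**Figure D2:**
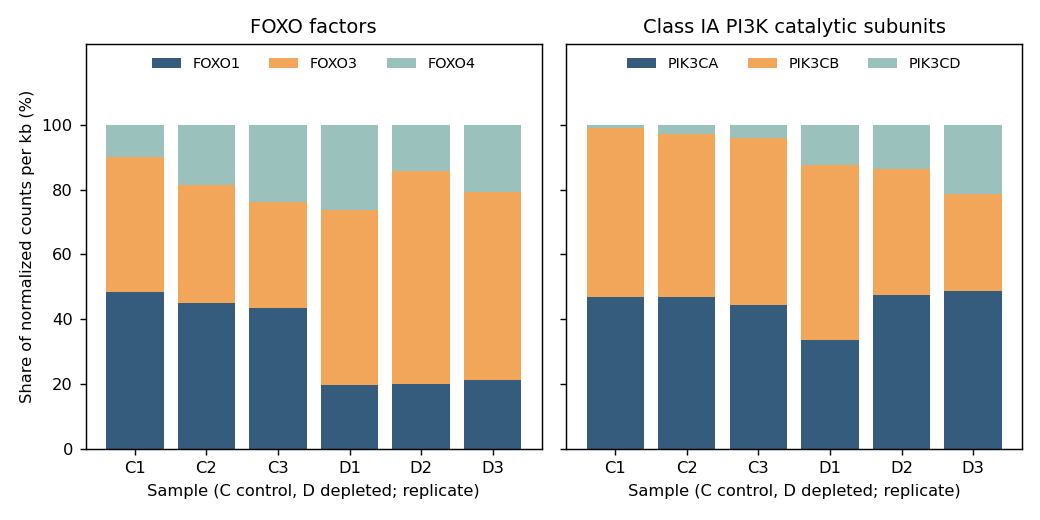
Share (%) of each gene in the summed normalized counts per kilobase of its family, in control (C) and depleted (D) samples with their replicate numbers, as bars that stack to the whole. FOXO1 was 43.6% to 48.4% of the FOXO factors in the controls and 19.6% to 21.1% after depletion, and PIK3CD took a larger share of the class IA catalytic subunits in every depleted sample than in any control.

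The 3 protein-coding genes whose centred log2 profile over the 6 samples was closest to that of FOXO1, among 10582 compared, were PDCD4, SLC44A5 and IRX5, with root mean square differences of 0.14, 0.16 and 0.18 (log2). PDCD4, an inhibitor of translation that is marked for degradation downstream of growth factor signalling, read 4784.9, 3379.2 and 4349.1 normalized counts in the controls and 870.4, 1495.6 and 907.8 after depletion. As for FOXO1, the lowest control was replicate 2 and the highest depleted sample was replicate 2. Among the other 9 genes the profile of DDIT4 was the nearest, at 0.41.

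The FOXO targets did not rise together. TXNIP, an alpha-arrestin that binds thioredoxin and restrains glucose uptake, lies at chr1:145992435-145996579 on the minus strand. Its level was 14882.3, 7560.9 and 23188.6 normalized counts in the controls and 5828.5, 2395.1 and 6262.9 after depletion. All depleted samples were below all controls, but the controls themselves spread 3.07-fold. The log2 fold change was -1.63 (SE 0.53, 95% interval -2.84 to -0.43, limma adjusted p = 0.12), and the mean went from 15210 ± 7819 to 4829 ± 2119 (SD, n = 3). TXNIP was therefore not called by limma, although it was by DESeq2 on the recovered reads (adjusted p = 0.0193), a rule under which 12.4% of all genes were called. ARRDC4, the alpha-arrestin most closely related to TXNIP and a MondoA target like it, read 833.4, 895.2 and 1289.7 normalized counts in the controls and 123.6, 125.9 and 252.7 after depletion, and fell by 2.64 on the log2 scale (SE 0.38, limma adjusted p = 0.00559). MLXIP, which encodes MondoA, had a log2 fold change of 0.02 and its partner MLX had -0.60, and neither was called.

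The sestrins restrain mTORC1 when nutrients or growth factors are short. SESN1 (chr6:108984309-109094846, minus strand) read 861.0, 512.6 and 775.2 normalized counts in the controls and 331.3, 497.0 and 491.9 after depletion. The groups did not overlap, but control replicate 2 stood only just above the depleted samples. The log2 fold change of SESN1 was -0.69 (95% interval -1.43 to 0.05, limma adjusted p = 0.288). SESN3 (chr11:95165513-95232541, minus strand), the sestrin best known as a FOXO target, read 308.3, 222.0 and 1233.6 normalized counts in the controls and 271.8, 458.3 and 277.3 after depletion. Control replicate 3 stood far above every other sample, and its removal turned the log2 fold change from -0.43 to 0.31, with neither called (limma adjusted p = 0.763 with all samples). The antisense gene LNCRNA-IUR overlaps SESN3 and read 8.8, 5.3 and 60.0 normalized counts in the controls and 75.1, 43.3 and 22.4 after depletion. The strand setting of the counting is not given in the sources used here, so reads of the pair may not be fully separated.

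PIK3IP1, a membrane protein that binds the PI3K catalytic subunit and inhibits it, was the gene with the highest positive value. It lies at chr22:31281594-31292534 on the minus strand, and its level was 109.0, 69.7 and 467.3 normalized counts in the controls and 260.9, 643.2 and 657.4 after depletion. Control replicates 1 and 2 were below every depleted sample, while control replicate 3 lay above depleted replicate 1. The log2 fold change was 1.64 (SE 0.70, 95% interval 0.04 to 3.25, limma adjusted p = 0.238), from a mean of 215.3 ± 219.1 to 520.5 ± 224.9 (SD, n = 3). Without control replicate 3 the value was 2.45 at an adjusted p of 0.0195, a call that rests on which library is left out.

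Control replicate 3 was the highest control for 5 of the 10 genes, FOXO4, SESN3, TXNIP, PIK3IP1 and PIK3C2B, and control replicate 1 for the other 5. Control replicate 2 was the lowest in 7. Libraries also differed with transcript length. The Spearman correlation of a sample's deviation with length, across 13035 genes, which are not independent replicates, was 0.378 in control replicate 3 and -0.325 in control replicate 2. With a correction for length the log2 fold changes were -0.52 for SESN3 and 1.62 for PIK3IP1. The part of length in the values of control replicate 3 was not tested. Within the controls the highest sample exceeded the lowest 6.70-fold for PIK3IP1, 5.56-fold for SESN3, 3.07-fold for TXNIP and 2.51-fold for FOXO4.

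**Figure D3:**
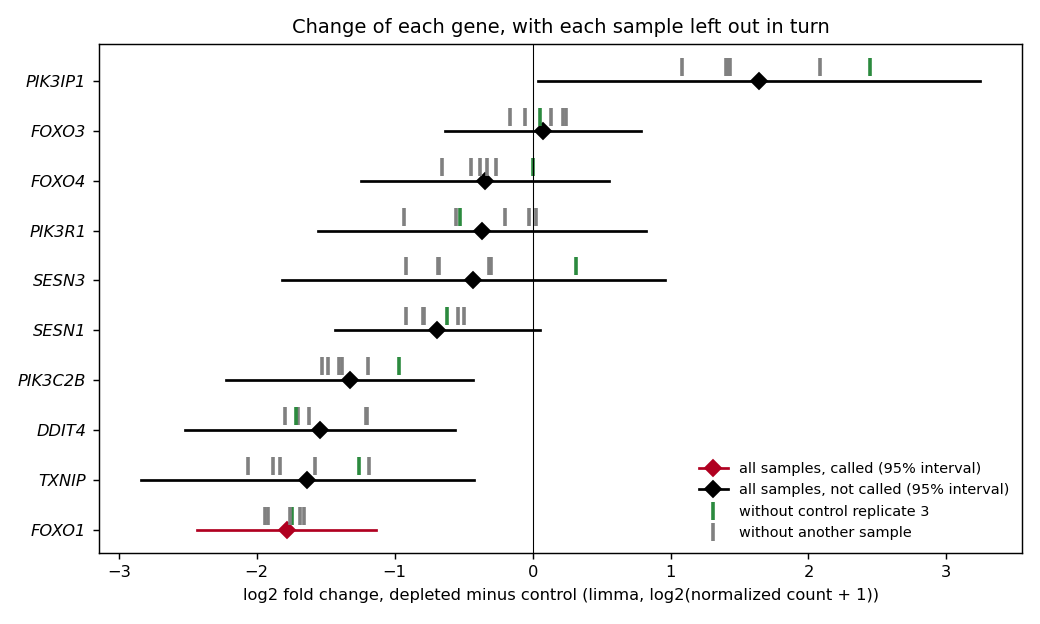
Log2 fold change (depleted minus control, limma on log2 normalized count + 1) of the 10 genes, with diamonds and lines for all 6 samples and their 95% intervals, red where called, and ticks for the fits that left out a sample. FOXO1 kept values between -1.94 and -1.65 in all these fits, while leaving out control replicate 3 (green) moved SESN3 from -0.43 to 0.31 and PIK3IP1 from 1.64 to 2.45.

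Among the PI3K-linked genes, PIK3R1 encodes p85α, the regulatory subunit that stabilizes and docks the class IA enzyme. It lies at chr5:68215740-68301821 on the plus strand and read 2819.8, 1352.1 and 1402.8 normalized counts in the controls and 2952.7, 1075.9 and 782.6 after depletion. Replicate 1 was the highest in both groups, and the groups overlapped (log2 fold change -0.37, 95% interval -1.56 to 0.82, limma adjusted p = 0.763). PIK3C2B, a class II PI3K that makes other phosphoinositides than class I, lies at chr1:204422628-204494805 on the minus strand. Its level was 303.3, 322.8 and 664.0 normalized counts in the controls and 173.0, 178.3 and 131.9 after depletion. The depleted samples were close to each other and all below the controls, with a log2 fold change of -1.33 (SE 0.39, 95% interval -2.22 to -0.43, limma adjusted p = 0.0917). That is not a call, but DESeq2 (adjusted p = 0.019) and limma with the length correction (adjusted p = 0.0387, with 7.22% of all genes called) called PIK3C2B.

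DDIT4, which encodes REDD1, a stress-induced inhibitor of mTORC1 and a known target of the glucocorticoid receptor, lies at chr10:72273919-72276036 on the plus strand. It read 15471.3, 7733.2 and 7576.7 normalized counts in the controls and 2095.1, 3704.5 and 4740.2 after depletion. All depleted samples were below all controls, and the mean went from 10260 ± 4513 to 3513 ± 1333 (SD, n = 3). The log2 fold change was -1.54 (SE 0.43, 95% interval -2.52 to -0.56, limma adjusted p = 0.0749), which did not pass, although DESeq2 called it (adjusted p = 0.0101), as did limma without control replicate 3 (-1.72, adjusted p = 0.0452). Hydrocortisone, a glucocorticoid, was among the supplements removed. Of 8 other glucocorticoid receptor targets tested, 3 were called down and 0 up, where 1.97% of all genes tested were called lower and 4.36% higher. The other 5 were not called. Values were negative for 6 of the 8 and positive for 2, with a median log2 fold change of -1.39. FKBP5, a chaperone partner of the receptor, fell by 3.84 on the log2 scale (limma adjusted p = 0.00268), the transcription factor ZBTB16 fell by 5.88 (limma adjusted p = 0.00115) and the clock gene PER1 fell by 2.40 (limma adjusted p = 0.0364), and of these PER1 kept its call in 2 of 6 fits that left out a sample. The summed level of these 8 genes was between 12010 and 30490 normalized counts in the controls and between 9543 and 10380 after depletion, and their relation to DDIT4 was not tested.

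Levels of different genes were ordered per kilobase of the union of annotated exons, so that the order depends on that length. DDIT4 (4844 ± 2131 normalized counts per kilobase, SD, n = 3) and TXNIP (4220 ± 2170) stood above the rest in the controls, followed by FOXO1 (233.3 ± 37.22) and FOXO3 (188.3 ± 37.04), and PIK3C2B was the lowest (42.29 ± 19.95). From DDIT4 downwards only the step from TXNIP to FOXO1 parted neighbours whose ranges did not overlap. After depletion DDIT4 (1659 ± 629.3) and TXNIP (1340 ± 587.9) remained above the rest, FOXO3 (201.2 ± 61.15) came next, then PIK3IP1 (136.8 ± 59.13) and PIK3R1 (98.25 ± 72.13), and FOXO1 (67.91 ± 13.72) stood below these. There the neighbours whose ranges did not overlap were TXNIP and FOXO3, SESN1 and SESN3, and SESN3 and PIK3C2B.

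The other genes of the pathway were taken from lists and gave 3 called up and 1 called down among 79 tested, with 29 positive and 50 negative values and a median log2 fold change of -0.15. These counts are close to the 4.36% called higher and 1.97% called lower over all genes tested. Of 21 other FOXO targets tested 1 was called up and 0 down, with 10 positive and 11 negative values and a median of -0.14. That gene was KLF2, a transcription factor that keeps cells quiescent, which read 1.3, 2.9 and 4.9 normalized counts in the controls, 5 reads or fewer, and 84.2, 101.6 and 73.8 after depletion (limma adjusted p = 0.00389). The genes of this list with the highest mean counts, not corrected for length here or in the lists that follow, were the muscle-atrophy ubiquitin ligase gene FBXO32 and the mitophagy kinase gene PINK1. Their values were 0.97 (limma adjusted p = 0.592) and -0.68 (limma adjusted p = 0.322), and their groups overlapped. The insulin receptor substrate IRS2 and the insulin receptor INSR, both textbook FOXO targets, differed by 1.08 (limma adjusted p = 0.251) and -0.70 (limma adjusted p = 0.239) on the log2 scale, and neither was called. GADD45A, a growth arrest gene, lay just outside the threshold at 1.97 (limma adjusted p = 0.0555) and passed it with the length correction (adjusted p = 0.0301), DESeq2 (adjusted p = 0.0014) and edgeR (adjusted p = 0.0464).

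Of 8 other PI3K subunits tested, PIK3CD was the gene called, and it rose. It encodes p110δ, the class IA catalytic subunit best known from leukocytes, and read 15.0, 40.4 and 85.6 normalized counts in the controls and 205.9, 272.8 and 313.0 after depletion (log2 fold change 2.76, SE 0.61, limma adjusted p = 0.0351). It made up 0.907%, 2.77% and 3.85% of the class IA catalytic subunits per kilobase in the controls and 12.4%, 13.4% and 21.3% after depletion, while the summed level of these subunits overlapped between the groups (186.1 ± 41.55 and 179.8 ± 29.74 normalized counts per kilobase, SD, n = 3). The class II subunits PIK3C2A (log2 fold change -0.34, limma adjusted p = 0.641) and PIK3C2G (-0.81, limma adjusted p = 0.511) were not called. The call of PIK3CD was less firm than that of FOXO1, since it was kept in 1 of 6 fits with a sample removed (without control replicate 3), with adjusted p between 0.00782 and 0.145, and edgeR did not call it (adjusted p = 0.0538).

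Of 10 AKT axis kinases and adaptors tested 1 was called up, GAB2, a docking protein that carries PI3K to receptors, at 35.1, 56.8 and 85.6 normalized counts in the controls and 467.7, 395.4 and 433.8 after depletion (log2 fold change 2.94, limma adjusted p = 0.00509). The kinase genes SGK1 (0.38, limma adjusted p = 0.782) and AKT2 (-0.59, limma adjusted p = 0.264) were not called.

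No gene was called by limma among the 9 phosphatases of phosphoinositides and AKT, where INPP4B, which removes a phosphate from the lipid product of PI3K, differed by -0.32 on the log2 scale (limma adjusted p = 0.722), nor among 7 genes of the 14-3-3 family, of which YWHAZ (-0.32) and YWHAB (0.06) had the highest mean counts. All 14 genes of the mTOR complexes and their inhibitors stayed within log2 fold changes of -0.59 and 0.21 with 0 called, and the highest mean counts were those of EIF4EBP2, a repressor of translation (0.21), and of the kinase gene MTOR (-0.01). In these 3 lists 1, 1 and 0 genes, in that order, had an unadjusted p under 0.05. DESeq2 called 1 of the phosphatases, INPP5D, and 0 genes in the other lists, and edgeR called 0 in all 3. Of the 8 alpha-arrestin and thioredoxin genes all had negative values, with a median of -0.50, and ARRDC4 was the gene called. Those with the highest mean counts, the thioredoxin reductase gene TXNRD1 and the alpha-arrestin gene ARRDC3, had values of -0.26 and -0.84.

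**Figure D4:**
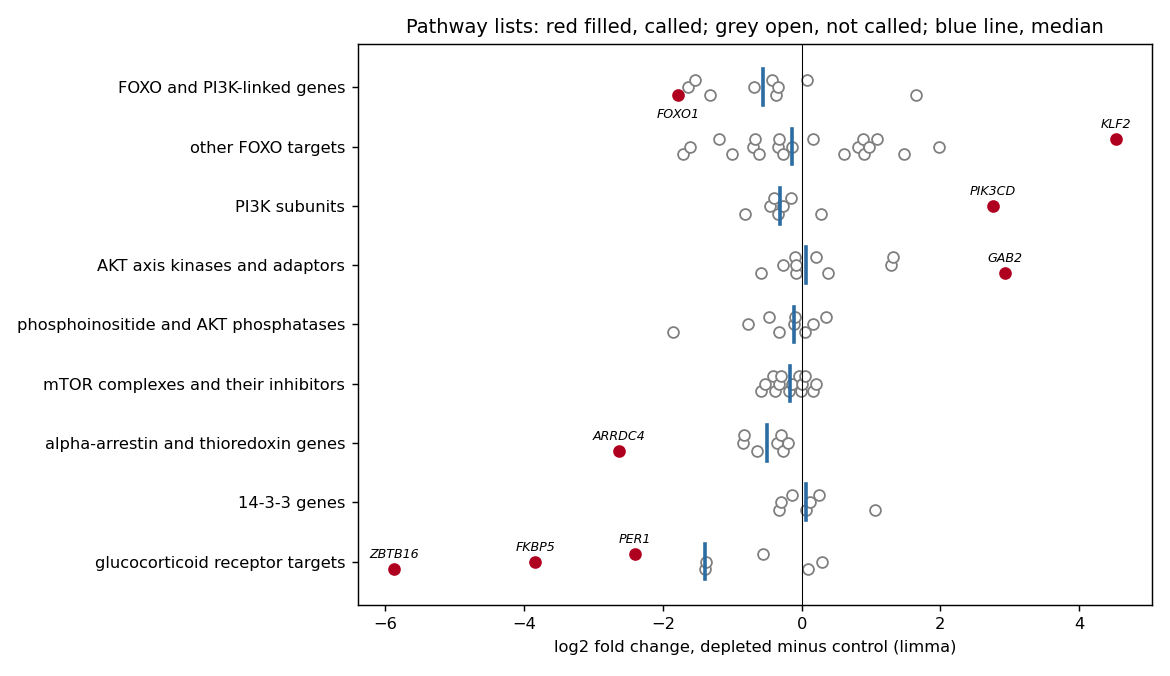
Log2 fold change (depleted minus control, limma) of each tested gene in the 10 genes followed here and in 8 lists of pathway genes, with called genes in filled red and named, other genes open, and the list median as a blue line. FOXO1, ARRDC4 and 3 glucocorticoid receptor targets were called down, and KLF2, PIK3CD and GAB2 were called up.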

How the data were processed

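RNA-Seq of 6 MCF10A samples was grouped by the sample labels, which list 3 control and 3 growth factor depleted samples where the design text gives 2 replicates. The authors depleted ribosomal RNA, prepared stranded libraries, trimmed single-end reads of 100 bases with cutadapt 1.6, aligned them to hg38 (TopHat2), counted per Gencode v22 gene (HTSeq 0.6) and applied size factors of DESeq2 1.8.1. The deposited signal is therefore a normalized count, which keeps effects of transcript length and of library composition. Whole reads were recovered for 100% of the values (tolerance 0.01 reads), and every gene of the table had 3 reads or more in 3 samples or more. Symbols came from Gencode v44, which names 18913 of 19198 identifiers. Lengths, also those of the length correction, were the union of all exons that it annotates for a gene. PCK1, G6PC1, SOD2 and TRIM63, on the list of FOXO targets, were not matched by name and are not analysed here.

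limma 3.58.1 in R 4.3.3 (eBayes with a trend, Benjamini-Hochberg over 16988 genes) was run where the mean reached 10 normalized counts. Fold changes are on the log2(value + 1) scale and understate those of low genes. The alternatives comprised pseudocounts of 0.5 and 10, no filter on low values or a minimum mean of 50, scaling to equal totals, quantile normalization, no trend, a replicate block, edgeR 4.0.16 and DESeq2 1.42.0 on the recovered reads, a correction for transcript length, an adjusted p under 0.1, and each sample left out in turn. The block combined with the length correction was added after seeing the data. The scripts were tested on simulated data. The 10 genes and the lists were chosen with earlier results of these data known. By rule the text names these 10, the called genes of each list (at most 6, with the 2 of highest mean count where fewer than 2 were called) and the 3 profiles nearest to FOXO1. IRS2, INSR, GADD45A, INPP5D, EPCAM, KDR, PECAM1 and the relatives in the closing section were named after their values were seen. Some genes of the lists enter the counts but are not reported here by name. Figures were made with matplotlib 3.10.9.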

Additional observations from a re-analysis of the deposited data

How the results depend on the processing

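Across 13 alternatives other than leaving out a sample, 124 of 130 values of the 10 genes kept their direction and their side of the threshold, 6 passed it anew and 0 reversed. The 6 were TXNIP (-1.65), PIK3C2B (-1.41) and DDIT4 (-1.53) with DESeq2, PIK3C2B (-1.42) with the length correction, and PIK3C2B (-1.33) and DDIT4 (-1.54) at an adjusted p under 0.1. Calls among the 10 genes were thus 4 with DESeq2, 2 with the length correction and 3 at an adjusted p under 0.1, against 1 in the main test. Over all genes DESeq2 called 2112 and an adjusted p under 0.1 gave 1706, against 1076, and in the pathway lists together DESeq2 called 9 against 4. The cause was not tested. 

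Leaving out each sample in turn, the 10 genes gave 0 calls (without depleted replicate 3) to 3 (without control replicate 3: DDIT4, FOXO1 and PIK3IP1), all genes 453 (without depleted replicate 2) to 2474 (without control replicate 3), and the pathway lists 3 to 9 (without control replicate 3). All-gene calls were also 634 without control replicate 1, 675 without control replicate 2 and 467 without depleted replicate 3. Log2 fold changes ranged from -1.94 to -1.65 for FOXO1, -0.16 to 0.24 for FOXO3, -0.66 to 0.0020 for FOXO4, -0.92 to -0.50 for SESN1, -0.92 to 0.31 for SESN3, -2.07 to -1.19 for TXNIP, 1.08 to 2.45 for PIK3IP1, -0.93 to 0.027 for PIK3R1, -1.53 to -0.97 for PIK3C2B and -1.80 to -1.20 for DDIT4. The sign turned for FOXO3 without control replicate 2 (-0.06) or depleted replicate 2 (-0.16), FOXO4 (0.0020) and SESN3 (0.31) without control replicate 3, and PIK3R1 without depleted replicate 3 (0.027).

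Same-numbered samples did not deviate together (correlations of -0.0726, -0.283 and -0.323). These correlations cannot decide whether same-numbered samples share a batch, because the deviations also followed transcript length, to a degree that differed between libraries. With the replicate block, 1 of the 10 genes (FOXO1, adjusted p = 0.0271) and 967 genes in all were called, and with the block and the length correction, added after seeing the data, 1 (FOXO1, adjusted p = 0.0235) and 843. Each of the 10 genes had at least 59 reads in every sample, and the interval for PIK3IP1, 0.04 to 3.25 on the log2 scale, was wide.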

Other observations

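Close relatives of the 10 genes, none of them among the lists, gave the following values. FOXO6, a FOXO factor that stays in the nucleus more than the others, read 12.5, 9.4 and 42.3 normalized counts in the controls and 69.6, 28.2 and 24.6 after depletion (log2 fold change 1.04, limma adjusted p = 0.492). FOXO3B, a near-identical copy of FOXO3 on chromosome 17 that can take or lose reads to it, read 32.6, 29.9 and 42.3 in the controls and 41.2, 53.1 and 58.1 after depletion (log2 fold change 0.53, limma adjusted p = 0.593), against 1183.5 to 2073.9 for FOXO3 itself. The groups overlapped for DDIT4L, the paralog of DDIT4 (log2 fold change 0.05, limma adjusted p = 0.983). PIK3AP1, an adaptor of PI3K, was under the minimum for the test, at 1.3, 2.3 and 2.0 in the controls and 9.2, 11.8 and 20.1 after depletion.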
